A study of Mus musculus with 4 samples.

Results

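Genes of zinc handling were examined in mouse 3T3-L1 cells, a fibroblast line that can be induced to form adipocytes in culture, after exposure to a differentiation mix. They are the metallothioneins Mt1 and Mt2, the transcription factor gene Mtf1, the exporter genes Slc30a1 and Slc30a5, and the importer genes Slc39a1, Slc39a6, Slc39a10 and Slc39a14. They were taken from the deposited expression table by their gene symbols, and these are 9 of the 16051 genes that it lists. The control cells received DMSO, the vehicle, for 48 h (RNC in the labels, which call them untreated), and the treated cells received 100 μM risperidone, a second-generation antipsychotic, for 48 h (RIS in the labels). Both groups are the same line, strain NIH SWISS in the labels, and both had been exposed to isobutyl-methylxanthine, dexamethasone and insulin to induce differentiation. Each group had 2 libraries, and each library was RNA pooled from 3 cultures of a single cell line, so the p-values measure the spread between pools and not between single cultures. The question was which transcripts of zinc binding and zinc transport were higher or lower in cells exposed to risperidone.

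Metallothioneins are small cysteine-rich proteins that bind zinc and copper in the cytosol. Their genes are activated by the zinc sensor encoded by Mtf1, which enters the nucleus when zinc is plentiful and binds short metal response elements in promoters, and they also respond to glucocorticoids and to oxidants. Proteins of the Slc39 family move zinc into the cytosol, from outside the cell or from organelles, and most proteins of the Slc30 family move it out of the cytosol. In adipocytes, zinc is known for its part in insulin signalling, and Slc39a14 is known to respond to inflammatory cytokines.

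Mt2 and Mt1 lie next to each other on chromosome 8 of GRCm38.p6, the build that the submitters' processing notes and RefSeq share. RefSeq places Mt2 at 94172618 to 94173567 and Mt1 at 94178883 to 94180327, with 5315 bases and 0 other RefSeq genes between them. The start regions of both genes are shown because they carry the metal response element core, and that of the exporter Slc30a1 is shown beside them because it is the best known zinc-responsive gene among the transporters. Each sequence runs 5′ to 3′ from 250 bases before to 30 bases after a RefSeq start site, all on the plus strand, and capitals mark matches to the core, searched on both strands as TGCACNC and TGCGCNC. The windows are chr8:94178839-94179118 for Mt1, chr8:94172368-94172647 for Mt2 and chr1:191906531-191906810 for Slc30a1.
Mt1: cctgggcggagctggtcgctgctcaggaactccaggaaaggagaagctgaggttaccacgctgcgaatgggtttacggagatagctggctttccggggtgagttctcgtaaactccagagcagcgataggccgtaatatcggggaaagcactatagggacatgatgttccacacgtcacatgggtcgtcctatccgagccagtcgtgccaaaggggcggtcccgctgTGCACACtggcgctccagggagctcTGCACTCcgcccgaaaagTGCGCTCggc
Mt2: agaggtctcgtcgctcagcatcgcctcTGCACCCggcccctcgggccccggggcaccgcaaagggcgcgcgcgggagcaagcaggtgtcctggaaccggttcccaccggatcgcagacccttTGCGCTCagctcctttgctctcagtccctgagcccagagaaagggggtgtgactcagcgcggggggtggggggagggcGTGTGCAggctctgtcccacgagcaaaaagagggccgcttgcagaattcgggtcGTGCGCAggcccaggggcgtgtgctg
Slc30a1: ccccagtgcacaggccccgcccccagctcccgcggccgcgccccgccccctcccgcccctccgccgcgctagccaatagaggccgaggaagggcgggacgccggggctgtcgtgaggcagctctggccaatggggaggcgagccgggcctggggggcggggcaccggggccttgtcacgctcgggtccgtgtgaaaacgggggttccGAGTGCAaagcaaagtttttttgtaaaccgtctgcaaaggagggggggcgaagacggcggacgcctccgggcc

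The Mt2 window held 4 matches and the Mt1 window 3, none of which overlapped another. Of the 32851 start windows of 27025 genes that RefSeq gave for this build, 24.1% held at least 1 match, 1.73% at least 3 and 0.405% at least 4. The windows of Slc30a1 and Slc30a5 held 1 match each, and those of Mtf1, Slc39a1 and Slc39a10 held 0 within these letters and bounds. Start windows were found for 7 of the 9 genes, all but Slc39a6 and Slc39a14. In Mt1 the matches began 23 bases before the start site of the window, 94179089, and at bases 3 and 21 from it. That site lies inside the RefSeq span of Mt1, which begins at 94178883, so the 3 matches fall within the span. GENCODE M21 also places Mt1 starts 122 and 152 bases and Mt2 starts 46 and 242 bases farther downstream, so each window covers only a part of the sequence before those starts. A match is a run of letters and not a measured binding site.

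The libraries held between 15883712 and 16374119 estimated counts, and a gene with 0 counts could by counting error alone hold up to 3, that is 0.183 to 0.189 CPM. Counts were compared with edgeR's quasi-likelihood test over the 10243 genes whose mean reached 1 FPKM, two-sided, with Benjamini-Hochberg adjustment over all of them, and a gene was called at an adjusted p under 0.05. FPKM is a level scaled to transcript length and to sequencing depth, SE is the standard error of the log2 fold change, and log2 fold changes are risperidone over DMSO. As to the cell type, the fibroblast markers were plentiful, with the 8 listed genes summing to between 2335 and 2544 FPKM. By contrast, 6 of 10 adipocyte markers, among them Adipoq, Plin1 and Cebpa, had a mean under 1 FPKM in both groups. Pparg, on the same list, was at 11.4 to 12.8 FPKM in all libraries. The 6 low markers are at odds with the study's description of the cells as differentiated, for which it also shows Oil Red O staining. The state of the cells in these libraries was not tested. The adipocyte list summed to 378 and 432 FPKM with DMSO and to 266 and 277 FPKM with risperidone, nearly all from Lpl and Fabp4, both of which were called lower. Of the 8 fibroblast markers 3 were called higher and 3 lower, where 32.1% of all genes tested were called higher and 32.2% lower. Risperidone replicate 2 stood apart, with 189.9 FPKM in sum over 10 kidney markers against 1.64 to 2.67 FPKM in the other libraries. The 5 liver markers reached at most 1.74 FPKM in sum, the 5 retina markers in the table at most 1.28 FPKM, and the 3 macrophage markers 2.67 and 3.55 FPKM with DMSO against 6.38 and 6.83 FPKM with risperidone, nearly all from Cd68. The part of these cells in the zinc genes was not tested, and in bulk RNA fewer cells of a type and less RNA per cell cannot be told apart.

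All 9 genes passed the limit of 1 FPKM. Of these, 5 were lower after risperidone (Mt1, Mt2, Mtf1, Slc39a1 and Slc39a14), 3 were higher (Slc39a10, Slc39a6 and Slc30a5) and 1, Slc30a1, was not called. Among all genes tested, 32.2% were called lower and 32.1% higher, or 64.3% in either direction, so a call by itself does not set these genes apart. That split, 3287 higher and 3303 lower genes, moved to 2500 and 4092 when counts were scaled by library size alone, to 2420 and 3975 with limma on FPKM and to 1536 and 5292 with limma on TPM. The median log2 fold change was -0.22 over the 9 genes and 0.00 over all genes tested. The FPKM values of the groups did not overlap for 8 of the 9 genes, as for 82.2% of all genes tested.

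**Figure D1:**
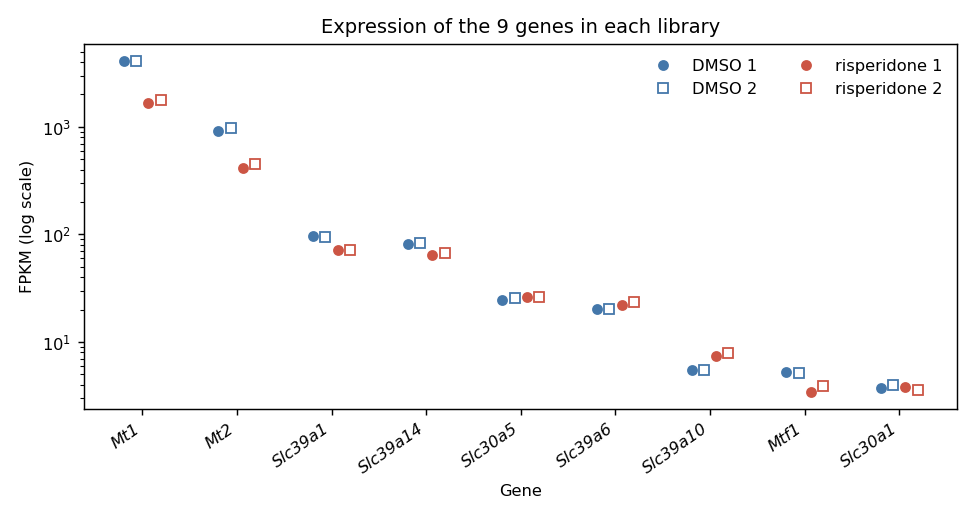
FPKM of the 9 genes, on a log axis, in each of the 4 libraries, with DMSO in blue, risperidone in red, filled circles for replicate 1 and open squares for replicate 2. The genes span from 4134 FPKM for Mt1 in DMSO replicate 2 to 3.42 FPKM for Mtf1 in risperidone replicate 1, and the Mt1 and Mt2 points of risperidone lie well below those of DMSO.

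The metallothioneins changed most. Mt1 (NCBI Gene 17748), the major metallothionein transcript of these cells, was at 4103 and 4134 FPKM in the DMSO libraries and at 1682 and 1791 FPKM in the risperidone libraries. Both risperidone libraries were far below both DMSO libraries, and the gap between the groups was many times the gap within them. The mean fell by 57.8%, from 4118 ± 21.5 to 1736 ± 76.8 FPKM (SD, n = 2 libraries). Its log2 fold change was -1.14 (SE 0.0519, adjusted p = 4.36e-08, edgeR). Mt2 (NCBI Gene 17750), its neighbour and close relative, was at 925 and 966 FPKM with DMSO and at 418 and 447 FPKM with risperidone. Its mean fell by 54.2%, from 946 ± 29.3 to 433 ± 20.6 FPKM (log2 fold change -1.02, SE 0.0524, adjusted p = 8.93e-08, edgeR). Here too the groups were far apart.

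Mt1 and Mt2 were the only 2 of the 9 genes that were called with a log2 fold change of 1 or more in size, and 3.91% of the genes tested were called lower by that much. Of all genes tested, 2.70% had a lower log2 fold change than Mt1 and 3.79% a lower one than Mt2. By FPKM, Mt1 was the transcript of rank 5 in both DMSO libraries and of rank 48 and 37 in the risperidone libraries. Mt2 moved from rank 69 and 66 to rank 181 and 161. By TPM, which sums to the same total in each library, both genes together made up 1.04% and 1.05% of the transcripts with DMSO and 0.385% and 0.426% with risperidone. That share was thus lower in both treated libraries than in either control library.

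The proportion within the pair moved little. The FPKM ratio of Mt1 to Mt2 was 4.44 and 4.28 with DMSO and 4.023 and 4.004 with risperidone. The log2 ratio was lower by a small amount (-0.12) after risperidone, and the groups did not overlap, but an exact two-sided permutation test of 2 against 2 libraries cannot go below p = 0.333, which is the value it gave. The counts of Mt1 and Mt2 were whole numbers in 4 of 4 libraries, as were those of the 6 transporters, so no fractional reads were assigned to them.

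**Figure D2:**
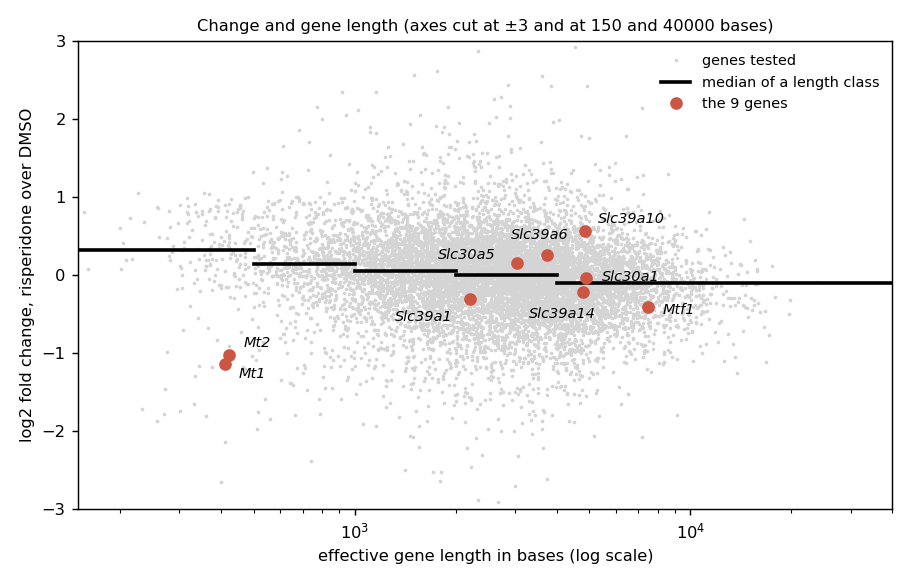
Log2 fold change of risperidone over DMSO against effective gene length in bases (log axis) for the genes tested, as grey points, with black bars for the median of each length class and red points for the 9 genes. The axes leave out 33 genes, and Mt1 and Mt2 lie at the short end, far below the median of 0.32 for genes under 500 bases.

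The effective lengths of Mt1 and Mt2, computed from their counts and FPKM, were 409 and 423 bases, and short transcripts as a class had higher fold changes than long ones. The 198 genes tested that were shorter than 500 bases had a median log2 fold change of 0.32, the 2731 genes of at least 4000 bases one of -0.10, and 18 of the 198 short genes (9.09%) were below -1. In the 4 classes of longer genes that share was lower, from 3.37% to 4.93%, so a fall of this size was most frequent among the shortest genes although their median was above 0. With offsets that remove trends with length and GC content, their log2 fold changes were -1.45 and -1.35 (adjusted p = 3.15e-09 and 6.00e-09, edgeR).

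Mtf1 (NCBI Gene 17764), which encodes the zinc sensor that drives both metallothionein genes, was itself lower. Its level was 5.22 and 5.10 FPKM with DMSO and 3.42 and 3.89 FPKM with risperidone. The groups did not overlap, although the risperidone libraries lay farther apart than the DMSO libraries. The mean went from 5.16 ± 0.0849 to 3.65 ± 0.332 FPKM, with SD over 2 libraries (log2 fold change -0.40, SE 0.0690, adjusted p = 0.000411, edgeR). It was at -0.26 after correction for length and GC trends and at -0.24 with limma after quantile normalization, called lower in both. Unlike the other 8 genes, Mtf1 had estimated counts that were not whole in any library, from 417.28 to 640.12, and RefSeq lists the gene 1110065P20Rik over the same stretch of chromosome 4 (124802549 to 124849800). Whether the counting used strand is not given in the sources used here, so reads of these genes may not be fully told apart.

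Slc30a1 (NCBI Gene 22782), the zinc exporter of the plasma membrane and a classical target of the zinc sensor, was not called. It was at 3.72 and 3.97 FPKM with DMSO and at 3.79 and 3.60 FPKM with risperidone. The values of the groups overlapped. With 310, 308, 287 and 280 counts, its log2 fold change was -0.030 (SE 0.0895, adjusted p = 0.780, edgeR), so changes of the size seen in Mt1 and Mt2 lie far outside its error, while small changes cannot be told from 0 at this depth. Slc30a1 also overlaps the RefSeq gene 1700034H15Rik.

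Slc30a5 (NCBI Gene 69048) encodes a transporter that loads the early secretory pathway with zinc. Its level was 24.7 and 25.4 FPKM with DMSO and 26.3 and 26.2 FPKM with risperidone. The groups did not overlap but were close, and its log2 fold change of 0.16 (SE 0.0571, adjusted p = 0.0295, edgeR) was the smallest of the 8 called. This call did not hold without DMSO replicate 1 (log2 fold change 0.14, adjusted p = 0.229) or without DMSO replicate 2 (0.18, adjusted p = 0.127, edgeR), fits in which the spread comes from the 2 risperidone libraries. With limma on TPM it was at -0.076, a scale on which the median of all genes was -0.22.

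The importers moved in both directions. Slc39a1 (NCBI Gene 30791), a widely expressed importer of the plasma membrane, had the highest level of the 7 transporter and regulator genes, at 95.8 and 93.7 FPKM with DMSO and 71.4 and 72.0 FPKM with risperidone. Its mean fell by 24.3% (log2 fold change -0.31, SE 0.0449, adjusted p = 0.000135, edgeR). Slc39a14 (NCBI Gene 213053), which also carries iron and manganese into cells, came next, with 81.6 and 82.9 FPKM under DMSO and 65.0 and 67.4 FPKM under risperidone. In both genes the replicates lay close together and the treated libraries lay below both controls. The mean of Slc39a14 fell by 19.5% (log2 fold change -0.22, SE 0.0463, adjusted p = 0.00159, edgeR). It was at -0.45 with limma on TPM and at -0.13 after correction for length and GC trends, still called in both, and Slc39a1 was at -0.54 with limma on TPM.

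Slc39a10 (NCBI Gene 227059), an importer of the plasma membrane whose transcript is known to be repressed when zinc is high, showed the largest increase of the 9 genes. It was at 5.44 and 5.50 FPKM with DMSO and at 7.40 and 7.87 FPKM with risperidone. Its mean rose by 39.6% (log2 fold change 0.57, SE 0.0618, adjusted p = 1.38e-05, edgeR), and 10.1% of the genes tested had a higher fold change. Slc39a6 (NCBI Gene 106957), its closest relative in the family, stood at 20.3 and 20.4 FPKM with DMSO and at 22.3 and 23.4 FPKM with risperidone. The groups did not overlap, and its mean rose by 12.3% (log2 fold change 0.26, SE 0.0569, adjusted p = 0.00197, edgeR). On the TPM scale limma gave 0.023 for Slc39a6 (adjusted p = 0.779) and 0.31 for Slc39a10 (adjusted p = 0.0143).

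The order of levels in the DMSO means was Mt1, Mt2, Slc39a1, Slc39a14, Slc30a5, Slc39a6, Slc39a10, Mtf1 and Slc30a1, and with risperidone Slc30a1 (3.69 FPKM) and Mtf1 (3.65 FPKM) lay within their spread of each other.

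**Figure D3:**
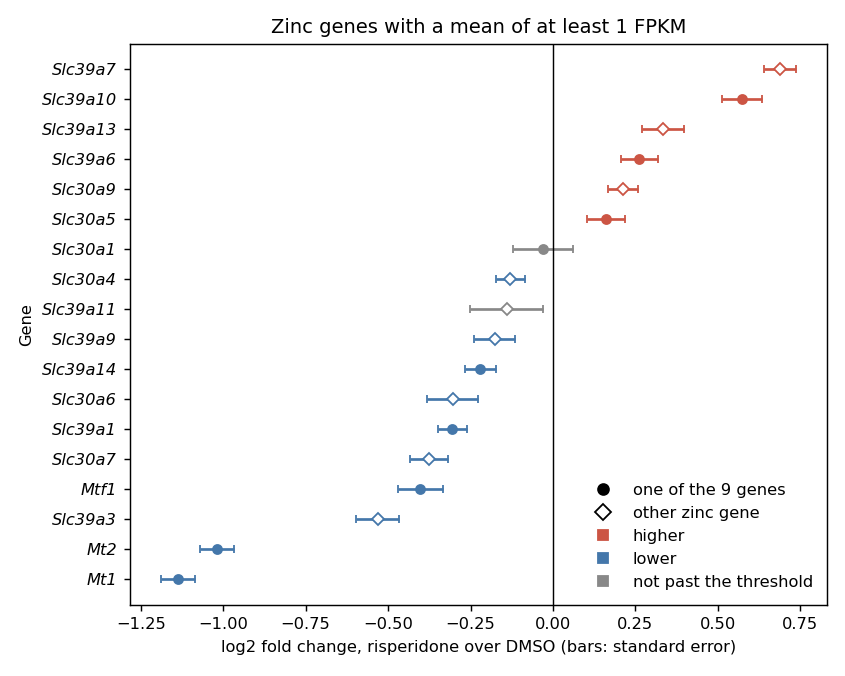
Log2 fold change of risperidone over DMSO, with bars for its standard error, for the 9 genes (filled circles) and the 9 other zinc genes tested (open diamonds), with red for higher, blue for lower and grey for not called. Mt1 (-1.14) and Mt2 (-1.02) stand apart from the transporters, which lie between -0.53 and 0.69.

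The remaining metallothioneins and zinc transporters were taken as whole families, 20 genes in all, of which 16 were in the table and 9 passed the limit. Of these 9, 3 were higher and 5 lower, and Slc39a11 was not called, where 32.1% of all genes tested were higher and 32.2% lower. The median log2 fold change of the 9 genes was -0.14. Slc39a7, which releases zinc from the endoplasmic reticulum, had the largest change. It was at 103 and 106 FPKM with DMSO and at 166 and 158 FPKM with risperidone, so that it was above Slc39a1 in each library. The log2 fold change was 0.69 (SE 0.0474).

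The other increases were those of Slc39a13 (log2 fold change 0.33), a transporter of intracellular vesicles known from connective tissue, and Slc30a9 (0.21), a mitochondrial zinc transporter. The decreases were those of the plasma membrane importer Slc39a3 (-0.53), of Slc30a7 (-0.38) and Slc30a6 (-0.30), which serve the Golgi and secretory pathway, and of Slc39a9 and Slc30a4. With limma on TPM, Slc39a13 was at 0.092 (adjusted p = 0.225) and Slc30a9 at -0.025 (adjusted p = 0.710). Slc30a7 was at -0.22 with limma after quantile normalization and Slc30a6 at -0.54 with limma on TPM. The call of Slc30a6 was lost without DMSO replicate 2 (adjusted p = 0.0780, edgeR) and with DESeq2 (adjusted p = 0.0661).

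The calls of Slc30a4 and Slc39a9 were lost in 3 of the 4 fits that left out 1 library. Slc30a4, a transporter of endosomes, lost its call without DMSO replicate 1, DMSO replicate 2 or risperidone replicate 1, with adjusted p-values of 0.159, 0.129 and 0.0519 from edgeR. Slc39a9, a transporter of the Golgi, lost its call without DMSO replicate 1, DMSO replicate 2 or risperidone replicate 2, with adjusted p-values of 0.0585, 0.111 and 0.0509. Neither gene was called after correction for length and GC trends.

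Of the 7 genes under the limit, Slc30a2 had 22 and 17 counts with DMSO and 40 and 36 with risperidone, and Slc39a8 had 55 and 55 against 37 and 34. Without the limit, Slc30a2 was higher (log2 fold change 1.05, adjusted p = 0.0335) and Slc39a8 had a log2 fold change of -0.54 (adjusted p = 0.0835, edgeR). Slc30a3, Slc39a2, Slc39a4, Slc39a5 and Slc39a12 had at most 4 counts in any library.

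Summed over each family, the transporters moved little by FPKM. The 8 Slc30 genes in the table summed to 165.7 and 167 FPKM with DMSO and to 159 and 164.8 FPKM with risperidone. Their share of TPM was 0.0343% and 0.0343% with DMSO and lower, at 0.0291% and 0.0314%, with risperidone. The 14 Slc39 genes summed to 358 and 360.3 FPKM with DMSO and to 380.3 and 378 FPKM with risperidone, a mean that was 5.46% higher, although their share of TPM was lower, at 0.0742% and 0.0740% with DMSO and 0.0696% and 0.0718% with risperidone. Mt1 and Mt2 together summed to 5028 and 5100 FPKM with DMSO and to 2100 and 2238 FPKM with risperidone, so the metallothionein sum fell by 57.2%. Of the 9 Slc39 genes tested, 4 were higher and 4 lower, and of the 6 Slc30 genes 2 were higher and 3 lower, against 32.1% higher and 32.2% lower among all genes tested.

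Metallothioneins also bind copper, and 12 genes of copper handling were therefore read beside them. Of the 11 that passed the limit, 4 (Atp7a, Sco2, Slc31a2 and Atox1) were lower and 1 (Cox17) higher, with a median log2 fold change of -0.11, beside 32.2% lower and 32.1% higher among all genes tested. The largest change was that of Atp7a, the pump that exports copper from cells, which stood at 77.2 and 77.1 FPKM with DMSO and at 30.7 and 35.3 FPKM with risperidone. Its log2 fold change was -1.13 (SE 0.0612, adjusted p = 1.23e-07, edgeR). Sco2 (-0.60), a copper chaperone of cytochrome oxidase, fell as well, while the mitochondrial copper chaperone Cox17 rose (0.43), though after correction for length and GC trends Cox17 was at 0.065 (adjusted p = 0.588, edgeR) and without risperidone replicate 1 at 0.26 (adjusted p = 0.0433, edgeR). Without risperidone replicate 2, Cox11 was called lower and 3 genes were higher, namely Cox17, Commd1 and Sod1, the last of which was called lower after the length and GC correction and on TPM. Atox1 lost its call without DMSO replicate 1, DMSO replicate 2 or risperidone replicate 2, and Slc31a2 without DMSO replicate 1 or risperidone replicate 1. Both also lost it with DESeq2 and with no filter on low values.

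Among 6 further genes described as dependent on the zinc sensor, 5 passed the limit, and 2 (Selenow and Ndrg1) were higher and 3 (Slc40a1, Csrp1 and Gclc) lower, where 64.3% of all genes tested were called in either direction. Gclc lost its call without DMSO replicate 2, without risperidone replicate 1 and with no filter on low values. Slc40a1, the iron exporter ferroportin, was at 8.96 and 6.84 FPKM with DMSO and at 3.71 and 4.39 FPKM with risperidone, and was called lower (log2 fold change -0.87, SE 0.134, adjusted p = 0.000181, edgeR). Selenow, which encodes a small selenoprotein, moved the other way, with a log2 fold change of 0.72, or 0.45 after correction for length and GC trends and 0.47 with limma on TPM. Ndrg1 had 12, 8 and 10 counts in DMSO replicate 1, DMSO replicate 2 and risperidone replicate 1 and 551 in risperidone replicate 2, the library with the kidney transcripts, and in the fit without it Ndrg1 was at 0.088 (adjusted p = 0.911, edgeR).

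Because of that library, the 9 genes were also compared without it, in a fit where the spread comes from the 2 DMSO libraries and the lone risperidone library is assumed to vary like them. Mt1 then stood at -1.18 on the log2 scale, Mt2 at -1.07, Mtf1 at -0.49 and Slc39a10 at 0.53, and the same 8 genes were called, 3 higher and 5 lower, in a fit that called 3310 genes higher and 3350 lower of the 10243 tested. Mt1 and Mt2 were at nearly the same level in risperidone replicate 2 as in risperidone replicate 1, so their decrease was present in each treated library.

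**Figure D4:**
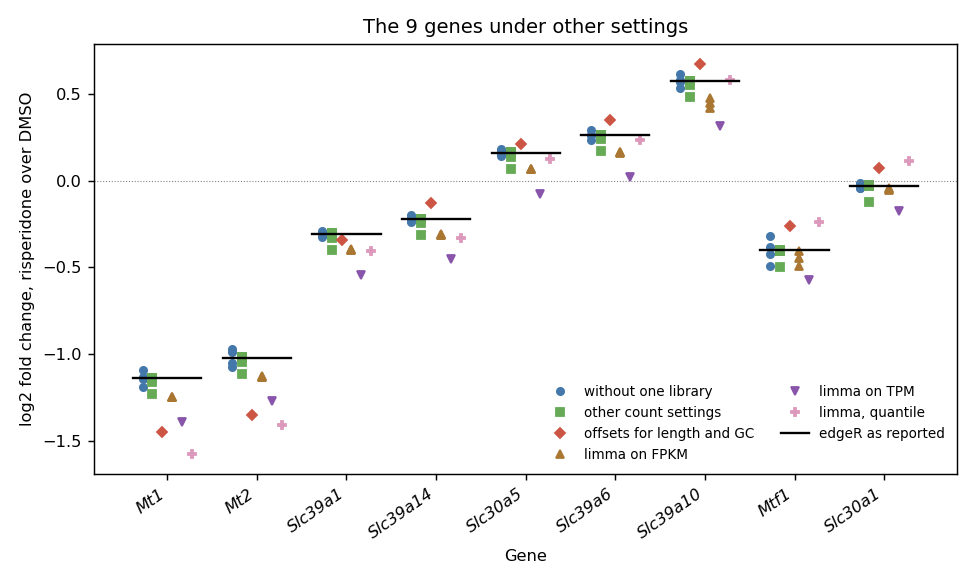
Log2 fold changes of the 9 genes under each alternative, with a black line for the value reported, blue circles for fits without 1 library, green squares for other count settings, red diamonds for length and GC offsets, brown and purple triangles for limma on FPKM and TPM, and pink crosses for quantile normalization. Mt1 stays between -1.57 and -1.09 and Slc39a10 between 0.31 and 0.67, while Slc30a5 and Slc30a1 cross 0.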

How the data were processed

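The data are 4 mRNA libraries of 3T3-L1 cells, described by the study as differentiated, sequenced on MGISEQ-2000, 2 with DMSO and 2 with risperidone, and the sample labels name a retina extraction that the study's methods do not. The submitters' processing notes name Bowtie2, RSEM, DESeq2 and GRCm38.p6. The authors deposited, per gene and library, an estimated count without normalization, whole for 91.2% to 91.7% of values, an FPKM and a TPM. The annotation and the handling of strand are not given in the sources used here. The deposited group means were not used.

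Counts were rounded to whole numbers and fitted by glmQLFTest after TMM scaling (edgeR 4.0.16 under R 4.3.3), with limma 3.58.1 and DESeq2 1.42.0 as alternatives. Standard errors were obtained from each log2 fold change and its F statistic. Offsets came from lowess trends (span 0.3) on effective length, from counts and FPKM, and on GC content of GENCODE M21 transcripts, known for 99.1% of genes. The fits were also run on simulated counts that used a single dispersion, taken from the edgeR fit. Far fewer genes changed in them than in these data. There edgeR recovered 81.6% of genes changed by 0.5 on the log2 scale and 96.9% of those changed by 1, with 10 false calls. DESeq2 recovered 59.2% and 92.8%. Marker lists, copper genes and genes linked to Mtf1 were written from general knowledge. The text names all 9 genes, the called genes of the other zinc families, with values for at most 6, and up to 3 called genes of each further list. Slc31a2, Atox1, Commd1, Sod1, Csrp1, Gclc, Cox11 and the genes under the limit were named, and p-values of Slc30a4 and Slc39a9 added, after their values were seen. The 9 genes and the lists were chosen with earlier results of these data known. Alternatives covered scaling, filters, pseudocounts of 0.1, 0.5 and 1, a replicate block, each library left out and a fold change limit. Python 3.11.15 with pandas 2.3.3 read the tables and matplotlib 3.10.9 drew the figures.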

Additional observations from a re-analysis of the deposited data

How the results depend on the processing

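Of 142 values for the 9 genes under the alternatives, 129 kept direction and side of the threshold, 10 lost the call and 3 changed sign. Mt1, Mt2, Mtf1, Slc39a1, Slc39a10 and Slc39a14 were called in the same direction in every fit that tested them, though with a required log2 change of 1 Mt1 and Mt2 alone kept their calls. The log2 fold changes ran for Mt1 from -1.57 to -1.09, Mt2 from -1.41 to -0.97, Mtf1 from -0.57 to -0.24, Slc39a1 from -0.54 to -0.29, Slc39a14 from -0.45 to -0.13 and Slc39a10 from 0.31 to 0.67. Slc30a5 lost its call in 9 alternatives and turned to -0.076 with limma on TPM, the setting that also moved Slc30a9 to -0.025. Slc30a1, never called, was at 0.073 with length and GC offsets and 0.11 after quantile normalization.

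Rescaling to TPM with limma moved the balance most, to 1536 higher and 5292 lower genes, with 1 of the 9 genes higher, 1 other zinc gene, 0 copper genes and 1 gene linked to Mtf1 higher, and 8 copper genes lower. With a required log2 change of 1 in either direction, the counts were 267 higher and 401 lower genes, 0 and 2 of the 9 genes, 0 and 0 other zinc genes, 0 and 1 copper genes and 1 and 0 genes linked to Mtf1. DESeq2 called 2 other zinc genes and 2 copper genes lower, with 2639 higher and 2653 lower over all genes. The offsets left 3 other zinc genes lower and 0 copper genes higher, with 3464 and 3272 over all genes. Without a filter, where 2942 and 3086 of 16021 genes were called, 2 copper genes were lower and 1 gene linked to Mtf1 was higher, and the latter was also 1 under a stricter limit of 5 FPKM, with limma on FPKM at each pseudocount and after quantile normalization. With each library left out in turn, so that 1 group is a lone library assumed to vary like the other group, 2 to 4 other zinc genes were lower, 1 to 3 copper genes higher and 2 to 4 lower, and 1 to 2 genes linked to Mtf1 higher, with 2666 to 3310 higher and 2725 to 3350 lower over all genes. Without DMSO replicate 1, 3 other zinc genes and 2 copper genes were lower, without DMSO replicate 2, 2 other zinc genes were lower, and without risperidone replicate 2, 3 copper genes were higher and 1 gene linked to Mtf1. The causes were not tested.

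Same-numbered libraries deviated with a correlation of -0.105 over the genes tested. With 2 libraries in each group both pairs give this same value, so it cannot decide whether the numbers pair the samples. With the replicate block, 3 of the 9 genes were higher and 5 lower, over all genes 3292 and 3321, and of the other zinc genes 4 were lower. A crossed pairing, chosen after the data were seen, gave 3474 higher and 3519 lower genes and the same 3 and 5. Slc30a1, Mtf1 and Slc39a10, with the lowest counts, have the largest counting error of the 9 genes.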
